A study of Arabidopsis thaliana with 6 samples.

Results

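Pectate lyase-like genes encode wall enzymes related to the pectate lyases of plant-infecting bacteria. The genes described here are 10 Arabidopsis loci of this family, out of 13286 genes with a single-gene probe set on the arrays. They are AT1G67750, AT1G04680, AT3G07010, AT3G24670, AT4G24780, AT5G63180, AT4G13710, AT5G48900, AT3G27400 and AT5G04310. All 10 had a single-gene probe set, and AT5G04310 had 2, so that none was left unread. By the TAIR10.1 gene annotation, 2 of the loci lie on chromosome 1, 3 on chromosome 3, 2 on chromosome 4 and 3 on chromosome 5. The members were chosen by family and by their measured difference between compound and solvent, the list being built around AT1G67750, which had stood out there. That comparison, values within replicate numbers included, is therefore given for the 10 genes as a description, and only the variation with replicate number, which played no part in the choice, is given as a test.

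Homogalacturonan, the main pectin of the primary wall, is a chain of galacturonic acid made in the Golgi and exported with methyl esters. Pectin methylesterases remove these esters in the wall. Pectate lyases then cut the de-esterified chain by beta-elimination, whereas polygalacturonases cut it by hydrolysis. Such cuts loosen the adhesion between neighbouring cells. Auxin is known to switch on wall-remodelling genes, pectate lyases among them, in the root cells that a lateral root primordium has to push through.

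RNA came from whole Arabidopsis thaliana seedlings of the Columbia 0 ecotype, with no mutant or transgene named in the labels. The compound group was 7 days old when it received 5 µM of a synthetic amide. It joins 2-(2,4-dichlorophenoxy)propanoic acid to a ring bearing isobutyrylamino and methoxy groups, and shares its dichlorophenoxy group with the auxin herbicide 2,4-D. The control group, of the same age, received only the solvent dimethyl sulfoxide (DMSO), and both groups were sampled after 24 h. Each group held 3 arrays, titled biological replicates 1 to 3, and each array read a pool of seedlings from 24 wells. The values are log2 expression values per probe set, and a difference of 1 on this scale is a doubling. In whole seedlings a change in the number of cells of a type cannot be told apart from a change in RNA per cell.

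The array medians lay between 5.75 and 5.79 and the lower quartiles between 3.95 and 4.06. With treatment as the only term, limma called 78 of 22746 probe sets at an adjusted p below 0.05 (0.343%). With the replicate number as a block it called 865 (3.8%), and arrays with the same number deviated together, as set out under the processing. The seedling markers that could be read, the root gene PYK10 (12.59 to 13.00) and the rubisco activase gene RCA (13.75 to 13.91), were high on all 6 arrays. The seed storage gene PAP85 lay at 3.70 to 4.33 and the 1 measured entry of a flower and pollen list, AT5G45880, at 4.43 to 4.75.

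AT1G67750 showed the widest difference of the 10 genes. With DMSO it stood at 5.50, 5.57 and 5.42 in replicates 1, 2 and 3, and with the compound at 7.54, 6.70 and 7.36. The 3 solvent arrays were nearly level, and all compound arrays lay above them, with replicate 2 the lowest of the 3. Within replicate numbers 1, 2 and 3 the gene was higher with the compound by 2.04, 1.13 and 1.95 on the log2 scale, or between 2.19-fold and 4.12-fold. The mean difference was 1.71 (SE 0.22, 95% interval 1.18 to 2.23, n = 3 arrays a group), a 3.26-fold higher level. This is the value that brought the gene onto the list. Its adjusted p in limma was 0.0458, and 0.0038 with the replicate block. The SD was 0.08 over the DMSO arrays and 0.45 over the compound arrays. In the 6 limma fits that each left out 1 array the difference was 1.53 to 1.96 with adjusted p of 0.0514 to 0.244. Those smaller fits called only 0 to 76 probe sets in all, and 0 without any 1 compound array. In the blocked fits without replicate number 1, 2 or 3 in both groups the difference was 1.54, 1.99 and 1.58, with adjusted p of 0.0193, 0.000163 and 0.0566.

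**Figure D1:**
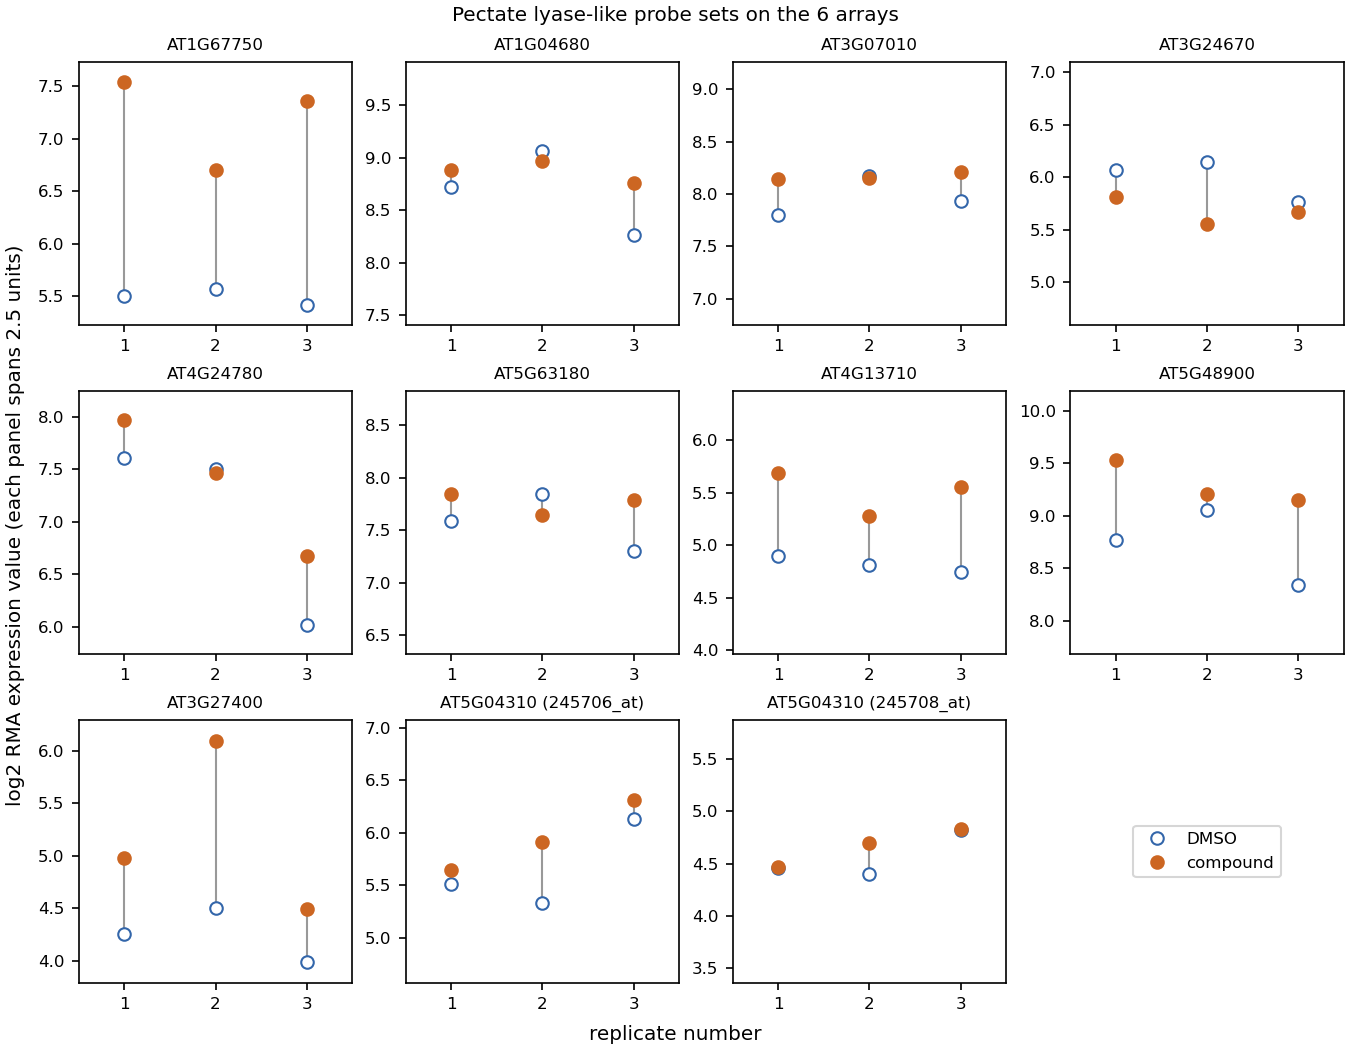
Log2 expression value (vertical axis) of each probe set of the 10 pectate lyase-like genes on the 6 arrays, by replicate number (horizontal axis). Open circles are DMSO arrays, filled circles compound arrays, and grey lines join arrays of the same number. The filled circles of AT1G67750 lie 1.13 to 2.04 above the open ones, whereas those of AT3G24670 lie below them in all 3 replicate numbers.

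A further 3 genes were higher with the compound in all 3 replicate numbers and by at least 0.5 on average, and 2 of them had groups that did not overlap. AT4G13710 stood at 4.90, 4.81 and 4.74 with DMSO and at 5.69, 5.28 and 5.55 with the compound. As for AT1G67750, the solvent arrays were nearly level and compound replicate 2 was the lowest of its group. Its mean difference was 0.69 (SE 0.13), a 1.61-fold higher level. limma gave an adjusted p of 0.154, and of 0.012 with the replicate block. In the blocked fits without replicate number 1, 2 or 3 it was 0.0648, 0.00523 and 0.117, at differences of 0.64, 0.80 and 0.63.

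AT5G48900 stood at 8.77, 9.05 and 8.34 with DMSO and at 9.53, 9.21 and 9.15 with the compound. The lowest compound array and the highest solvent array were thus close, and the difference within replicate number 2 was 0.16 against 0.75 and 0.81 in numbers 1 and 3. The mean difference was 0.58 (SE 0.20). The adjusted p in limma was 0.727, and 0.0718 with the block. With the block and without replicate number 1, 2 or 3 it was 0.25, 0.00597 and 0.381, at differences of 0.49, 0.78 and 0.46.

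AT3G27400 had the second widest mean difference, 0.94 (SE 0.40), but also the widest spread among the compound arrays of the 10 genes. It stood at 4.25, 4.50 and 3.99 with DMSO and at 4.98, 6.09 and 4.49 with the compound, so that compound replicate 3 lay just below DMSO replicate 2. Compound replicate 2 was the highest array here, where it had been the lowest for AT1G67750 and AT4G13710. The differences within replicate numbers 1, 2 and 3 were 0.72, 1.59 and 0.50. Its adjusted p in limma was 0.95 without the block, 0.049 with it and 0.136 with the block taken as random. With the block and without replicate number 1, 2 or 3 it was 0.114, 0.0246 and 0.105, at differences of 1.05, 0.61 and 1.16. The DMSO values lie near the lower quartile of the arrays, where a measured difference can understate the change.

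AT5G04310 was read by 2 probe sets, and both were higher with the compound in all 3 replicate numbers, though by little. The brighter probe set, which stands for the gene in all counts, read 5.51, 5.33 and 6.13 with DMSO and 5.64, 5.91 and 6.31 with the compound. The other probe set read 4.46, 4.40 and 4.82 with DMSO and 4.47, 4.70 and 4.83 with the compound. In both the difference was widest within replicate number 2 (0.58 and 0.29). Replicate number 3 was the highest of both groups for both probe sets. The mean differences were 0.30 (SE 0.25, and 0.10 with the block) and 0.10 (SE 0.15, and 0.0886 with the block).

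A group of 4 genes had mean differences between 0.18 and 0.33, groups that overlapped and 1 replicate number of 3 in which the compound array was the lower. AT4G24780 varied most between arrays, at 7.61, 7.50 and 6.02 with DMSO and 7.97, 7.47 and 6.68 with the compound. Its 2 arrays of replicate number 3 were the lowest of their groups, and its mean difference was 0.33 (SE 0.50, and 0.13 with the block). AT3G07010 stood at 7.80, 8.17 and 7.93 with DMSO and at 8.14, 8.15 and 8.21 with the compound (difference 0.20, SE 0.12).

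AT1G04680 stood at 8.72, 9.06 and 8.26 with DMSO and at 8.88, 8.97 and 8.76 with the compound (difference 0.19, SE 0.20). AT5G63180 stood at 7.59, 7.85 and 7.30 with DMSO and at 7.85, 7.65 and 7.79 with the compound (difference 0.18, SE 0.15). For both genes DMSO replicate 3 was the lowest of the 6 arrays and DMSO replicate 2 the highest, in AT5G63180 level with compound replicate 1. The differences of AT1G04680 and AT4G24780 turned to -0.02 and -0.18 without DMSO replicate 3.

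AT3G24670 was the 1 gene of the 10 with a lower mean after the compound. It stood at 6.07, 6.14 and 5.76 with DMSO and at 5.81, 5.55 and 5.67 with the compound. The compound array was the lower within every replicate number, by 0.26, 0.59 and 0.09, while DMSO replicate 3 lay within the range of the compound arrays. The mean difference was -0.31 (SE 0.13, 95% interval -0.63 to 0.00).

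Counted together, 1 of the 10 genes was called higher and 0 lower without the block, where 0.119% of all probe sets were called higher and 0.224% lower. The other 9 had adjusted p of 0.154 to 0.999 in limma, and 3 of the 10 had an unadjusted p below 0.05, as had 5.36% of all probe sets. With the replicate block 3 were called higher, AT1G67750, AT4G13710 and AT3G27400, and 0 lower. AT3G27400 was not called with the block taken as random. With the fixed block the shares of all probe sets were 1.83% higher and 1.97% lower. In limma the other 7 had adjusted p of 0.0718 to 0.582 with the block. The compound arrays were all above the DMSO arrays in 3 of the 10 and all below them in 0 (5.37% and 4.37% of all probe sets). In 5 the compound array was the higher within all 3 replicate numbers and in 1 the lower (21.2% and 16.5% of all probe sets). The median difference of the 10 was 0.31, against 0.01 over all probe sets. Since this contrast was known when the genes were picked, nothing is read from these counts.

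**Figure D2:**
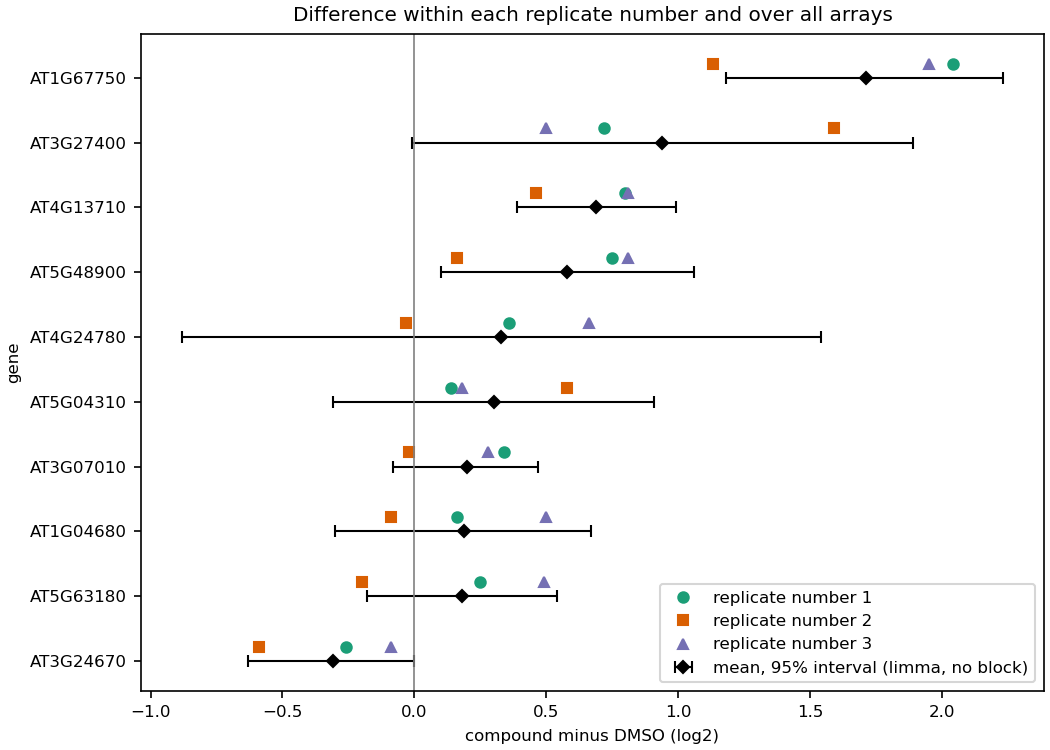
Compound minus DMSO on the log2 scale (horizontal axis) for the 10 genes (vertical axis), ordered by mean difference. Coloured marks are the differences within replicate numbers 1, 2 and 3, and diamonds with bars are the means with 95% intervals from limma without the block. The interval of AT1G67750 (1.18 to 2.23) overlaps those of AT3G27400 (-0.01 to 1.89) and AT4G24780 (-0.88 to 1.54) and lies above that of AT4G13710 (0.39 to 0.99). The squares of replicate number 2 are leftmost in 8 genes.

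The differences were ordered alike in most of the 10 genes. In 8 the smallest or most negative difference was that within replicate number 2, the exceptions being AT3G27400 and AT5G04310, in which it was the largest. Over all probe sets replicate number 2 held the smallest difference in 32.8% and the largest in 35.4%. The median difference of the 10 genes was 0.35, 0.07 and 0.50 within replicate numbers 1, 2 and 3, against -0.01, 0.02 and 0.02 over all probe sets. With 1 array for each group and number, this was not tested, and the 10 genes share the same 6 arrays.

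The replicate number itself can be tested, because its effect is estimated separately from that of the treatment in this balanced design. In a limma F test of the replicate terms 3 of the 10 genes were called at an adjusted p below 0.05, against 23.2% of all probe sets, so that the share among the 10 was close to that of the array as a whole. AT4G24780 varied most. The mean of its compound and DMSO arrays was 7.79, 7.48 and 6.35 in numbers 1, 2 and 3, a range of 1.44 (limma F test, adjusted p = 0.00339).

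AT5G04310 had means of 5.57, 5.62 and 6.22 in its brighter probe set, with number 3 the highest (limma F test, adjusted p = 0.0195). Its other probe set, at 4.47, 4.55 and 4.82, had the same order but was not called (limma F test, adjusted p = 0.1). AT3G27400 had means of 4.62, 5.29 and 4.24, with number 2 the highest (adjusted p = 0.0406). In the compound group replicate 2 was 1.11 above the next array, and in the DMSO group 0.24 above it. The other 7 genes had adjusted p of 0.0885 to 0.575. Among them AT1G67750 had means of 6.52, 6.13 and 6.39 (adjusted p = 0.389). What arrays of 1 number had in common is not stated in the labels.

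**Figure D3:**
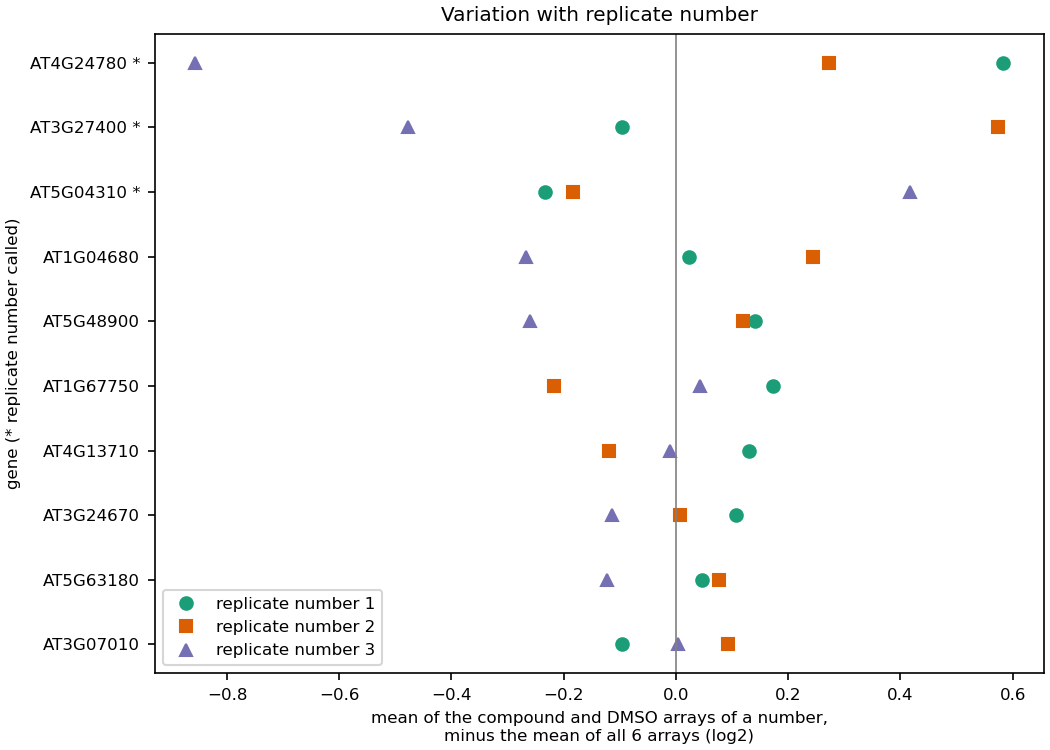
For each of the 10 genes (vertical axis), the mean of the compound and DMSO arrays of a replicate number minus the mean of all 6 arrays (log2, horizontal axis). Stars mark the 3 genes called in the limma F test of replicate number. Number 3 is the lowest in 6 genes, AT4G24780 among them, and the highest in AT5G04310.

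The family has further members outside these 10. Of 16 other loci held to belong to it, 13 were measured, and AT3G54920, AT4G22080 and AT4G22090 were not analysed here, having no single-gene probe set. None of the 13 was called without the block, and 3 had an unadjusted p below 0.05 in limma (5.36% of all probe sets). With the block 1 was called higher, AT4G13210, as were 1.83% of all probe sets. It stood at 4.26, 4.23 and 3.97 with DMSO and at 4.71, 4.70 and 4.36 with the compound (difference 0.44, SE 0.14; adjusted p = 0.597, and 0.024 with the block). All its compound arrays lay above its DMSO arrays. Its DMSO values lie near the lower quartile of the arrays, and 1 array value was below it.

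AT3G53190 also had compound arrays wholly above the DMSO arrays, at 6.63, 6.50 and 6.39 against 6.26, 6.29 and 5.83 (difference 0.39, SE 0.15). AT1G11920 had them wholly below, at 4.19, 4.06 and 3.97 against 4.29, 4.69 and 4.42 (difference -0.39, SE 0.13). The remaining 10 lay between -0.14 and 0.10. Of the 13 loci 7 were below the lower quartile on all 6 arrays, as were 20.3% of all probe sets, and none of the 10 main genes was. AT59, one of the 7, read 3.57 to 3.98. At such values a change can go unseen.

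Other genes that act on pectin were taken from lists written down from general knowledge, since the gene table gives no function for most loci. Over 6 lists, the other pectate lyase-like loci included, 63 of 122 entries were measured. Without the block limma called 0 of the 63, and 6 had an unadjusted p below 0.05, where 5.36% of all probe sets had one. With it 2 were called higher and 0 lower (1.83% and 1.97% of all probe sets). The second of these, beside AT4G13210, was AT1G10640.

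Polygalacturonases, which cut the same chain as pectate lyases, had 36 measured genes of 54, with a median difference of 0.00. AT1G10640 stood at 4.12, 4.58 and 3.91 with DMSO and at 4.86, 5.03 and 4.63 with the compound (difference 0.63, SE 0.19; adjusted p = 0.587, and 0.013 with the block). Every compound array was above every DMSO array, and 1 array value of the gene was below the lower quartile. AT3G15720 and AT1G65570 were at -0.51 (SE 0.22) and -0.34 (SE 0.13), and the other 33 lay between -0.27 and 0.28. Of the 36 genes 13 were below the lower quartile on all arrays.

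Rhamnogalacturonan lyases cut the backbone of the branched pectin rhamnogalacturonan I. The 5 measured genes lay between -0.17 and 0.07, with AT2G22620 at -0.17 (SE 0.10), AT4G37950 at -0.09 and AT1G09910 at 0.07. Pectin acetylesterases remove acetyl groups from pectin. The 6 measured genes lay between -0.23 and 0.28, with AT5G26670 at 0.28 (SE 0.22), AT3G05910 at -0.23 (SE 0.15) and AT1G57590 at 0.17 (SE 0.25). The 1 measured gene of homogalacturonan synthesis, GAUT15, a putative galacturonosyltransferase, was at 0.23 (SE 0.17). Of the wall-sensing receptor kinases FER was at 0.00 (SE 0.13) and THE1 at -0.06 (SE 0.41). Not 1 gene of these 4 lists was called in either fit.

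**Figure D4:**
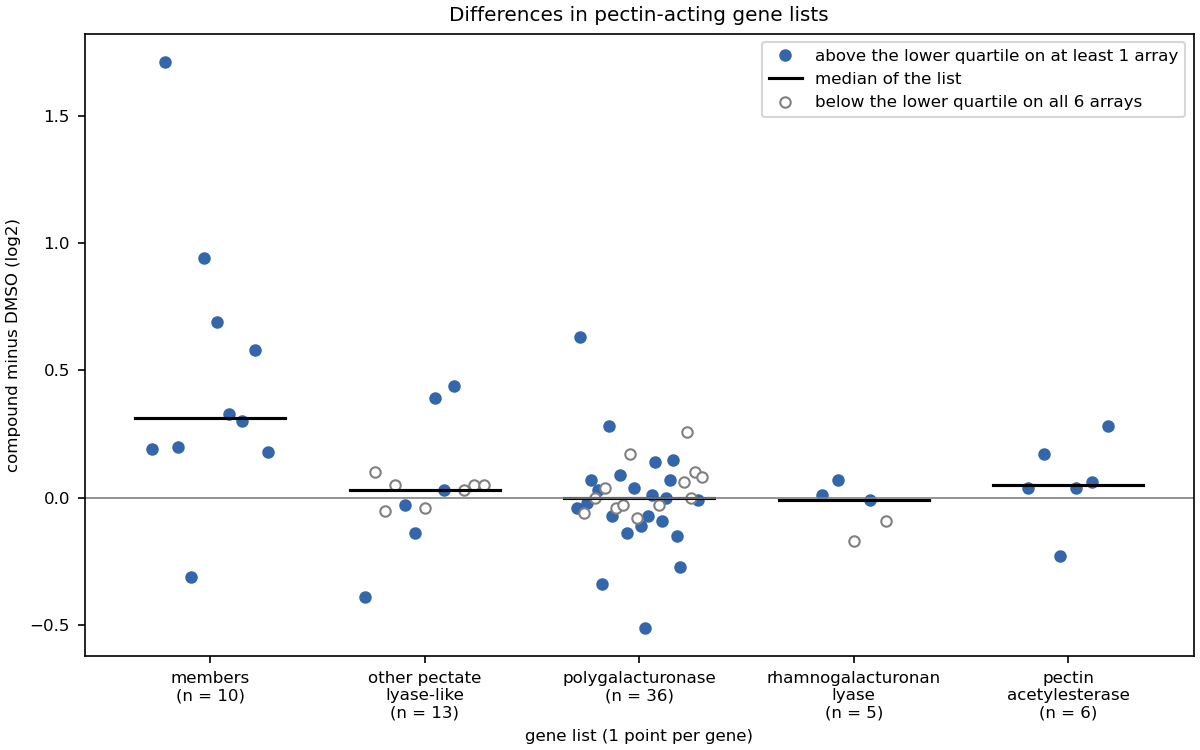
Compound minus DMSO (log2, vertical axis) for each measured gene of 5 lists (horizontal axis), with black bars at the list medians. Open circles are genes below the lower quartile on all 6 arrays. The 10 main genes have a median of 0.31 and reach 1.71, and no gene of the other 4 lists exceeds 0.63. The 10 were chosen with this difference known, so nothing is read from that contrast.

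Among all other genes, the 5 with the profile most like that of AT1G67750 were AT3G25290, AT5G22580, PR-1-LIKE, LBD29 and AT2G19970. Likeness was the root mean square difference between values centred on each gene's mean over the 6 arrays, and it was 0.19, 0.23, 0.24, 0.24 and 0.27 on the log2 scale. The centred profile of AT1G67750 itself had a root mean square of 0.89. All 5 had compound arrays wholly above the DMSO arrays, and in all 5 the difference within replicate number 2 was the smallest, traits of AT1G67750 that the choice by likeness largely fixes. In AT3G25290 the differences within numbers 1, 2 and 3 were 1.95, 1.13 and 2.14, where AT1G67750 had 2.04, 1.13 and 1.95. Of the other 9 main genes AT4G13710 and AT5G48900 came closest, at 0.53 and 0.63, and AT3G24670 was the farthest, at 1.03.

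**Figure D5:**
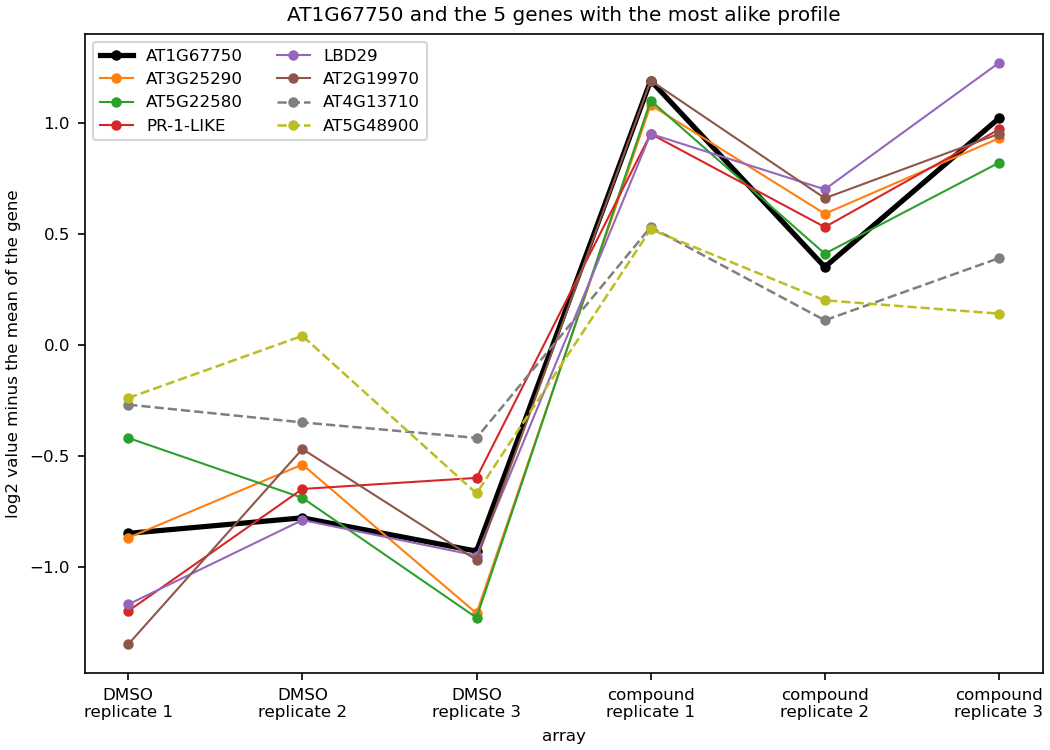
Log2 value minus the gene's own mean (vertical axis) on the 6 arrays (horizontal axis) for AT1G67750 (thick black line), the 5 genes most like it (thin lines) and AT4G13710 and AT5G48900 (dashed). Lines only join the points of a gene. The arrays of compound replicate 2 are below those of compound replicate 1 in every gene drawn.

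Some genes of particular root cells moved in the same comparison. Of 11 entries of a lateral root list 5 were measured, and of 6 entries of a root hair list 2. Both lists were written with earlier results of these data known, so their values and calls are given as a description. Of 5 measured genes of lateral root formation 3 rose, LBD16 (difference 1.61, SE 0.10), LBD29 (1.94, SE 0.17) and PUCHI (1.30, SE 0.15). Their adjusted p in limma was 0.0147, 0.0173 and 0.0313, where 0.119% of all probe sets were called higher. The others, LHW (0.13, SE 0.12) and CR4 (0.03, SE 0.18), were not called. LBD16 and LBD29 encode transcription factors of lateral root initiation, and PUCHI one of the early primordium. The summed level of the 5 genes was 7.27 to 7.43 with DMSO and 8.47 to 8.61 with the compound. Both measured root hair expansins fell, EXPA7 (difference -2.10, SE 0.26) and EXPA18 (-1.81, SE 0.20), and their summed level was 7.91 to 8.84 with DMSO and 6.39 to 6.51 with the compound. The adjusted p in limma was 0.042 and 0.0266, where 0.224% of all probe sets were called lower. No marker of either list was at 0, a level that RMA values do not reach. The part of these cells in the values of the pectate lyase-like genes was not tested.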

How the data were processed

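The 6 samples were read on Affymetrix-type arrays. Per the submitters' processing notes the authors used RMA, and the values they deposited are on the log2 scale, 1 per probe set. The software version was not given in the sources used here. RMA sets all arrays to one distribution, so it hides a shift common to all transcripts, and it compresses small values. The number of arrays limits the precision.

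Leaving out 64 control probe sets, 22746 were tested with limma 3.58.1 in R 4.3.3 (treatment as the only term, Benjamini-Hochberg over all, threshold 0.05). Differences are compound minus DMSO with moderated SE. Unless stated otherwise, SE and 95% intervals are from the fit without the block, so they include the spread between replicate numbers. With the block the SE was 0.17 for AT1G67750, 0.19 for AT3G27400 and 0.0736 for THE1. Replicate number was tested by an F test in the fit with treatment and number. Both were also run on simulated arrays with planted differences, whose outcome is not given here and not used as support. The simulation for replicate number left out the replicate effects fitted to these data.

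Names came from the platform annotation, matched by gene number to the TAIR10.1 table for 13436 probe sets with 1 gene. 503 had several genes and 8730 were unnamed here. A gene with several probe sets is shown by its probe set of highest mean.

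Deviations from group means correlated at 0.727, 0.728 and 0.743 between arrays of the same number, above the limit of 0.1 for calling arrays paired. The blocked fit is therefore printed where it changes a call among the 10 genes and the lists. Of the genes chosen by likeness it changed the calls of AT5G22580 (limma, adjusted p = 0.109, and 0.00446 with the block) and AT2G19970 (0.0513 and 0.00819). Nothing in the labels ties the biological replicates to separate cultures, so p-values speak only of these samples. Without the block they set a difference against the spread between the samples of a group. Those with the fixed block, and those for replicate number, use the spread left after treatment and replicate number.

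The 10 genes and all 11 lists were chosen with earlier results of these data known. Named were the 10 genes, any called list gene or otherwise up to 3 of the largest difference per list, and the 5 genes most like AT1G67750. AT59 and the lists' other genes were picked after their values were seen. Alternatives were the block (fixed or random), leaving out arrays or replicate numbers, a minimum mean of 4, median centring, a trended prior and array weights.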

Additional observations from a re-analysis of the deposited data

How the results depend on the processing

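The number of the 10 pectate lyase-like genes called higher was 1 with all arrays and no block, 3 with the replicate block and 2 (AT3G27400 lost) with that block taken as random. Without any 1 array it was 0. In the block fit without replicate number 1, 2 or 3 it was 1, 4 and 0. Those 3 fits called 516, 743 and 205 of 22746 probe sets in either direction. With all arrays 78 were called without the block, 865 with it and 491 with it taken as random. None of the 10 genes was called lower in any fit. Fits without 1 array called 0 to 76 probe sets in all, from 3 residual degrees of freedom. Of the 63 other pectin genes, 0 were called higher with no block and 2 with either kind of block, and 0 to 1 without arrays or numbers. For replicate number 3 of the 10 genes were called (23.2% of all probe sets), 1 without a treatment term (9.4%) and 4 with a trended prior (26.5%). Without replicate number 1, 2 or 3 it was 3, 3 and 0, where 12.4%, 15.2% and 10.7% of all probe sets were called. Over 15 alternatives AT1G67750 kept its direction, at 1.53 to 1.99. The difference reversed in 2 of 165 refits of single probe sets, AT1G04680 at -0.02 and AT4G24780 at -0.18, both without DMSO replicate 3 (ranges without single arrays or a number -0.02 to 0.38 and -0.18 to 0.67). The fits without an array have fewer samples by construction. Beyond that the cause was not tested. No detection calls were used here, so values near the lower quartile cannot be separated from background.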

Other observations

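Several other pectin-related genes varied with replicate number more than with the treatment. The wall-integrity receptor kinase gene THE1 stood at 7.70, 8.56 and 8.90 with DMSO and at 7.62, 8.47 and 8.88 with the compound, so that each pair of arrays was close and replicate number 1 was the lowest in both groups (limma F test of replicate number, adjusted p = 0.00103, range of the number means 1.23). The pectate lyase-like gene AT3G09540 stood at 6.10, 5.41 and 4.82 with DMSO and at 5.85, 5.08 and 4.99 with the compound (adjusted p = 0.0059 in the same limma test). The polygalacturonase-list gene AT3G06770 stood at 8.06, 8.58 and 8.60 with DMSO and at 7.96, 8.63 and 8.75 with the compound (adjusted p = 0.0085 in limma). Over the 6 lists 12 of 63 genes were called for replicate number, against 23.2% of all probe sets. These 3 genes were picked after their values were seen.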
